A study of Neurospora crassa with 19 samples.

Results

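The genes described here are 10 genes of the Neurospora circadian clock, taken by locus from the 9730 genes counted in 2 poly-A RNA libraries of a single strain. Of these, 6 make up the core loop. They are wc-1 (NCU02356) and wc-2 (NCU00902) of the positive limb, frq (NCU02265) and frh (NCU03363) of the negative limb, and ck-1a (NCU00685) and fwd-1 (NCU04540), which act on the FRQ protein. The other 4 are clock outputs, csp-1 (NCU02713), ccg-1 (NCU03753), ccg-6 (NCU01418) and ccg-14 (NCU07787). The genes were chosen by name and function, with earlier results of these data known. The fewest reads of any of them in a library were 438.

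The series studied strains of the mold Neurospora crassa that have or lack dim-1 (NCU06484), a chromatin remodeler gene whose loss lets DNA methylation appear in abnormal places. Among its 19 samples, the RNA libraries used here came from N5801, a strain whose label gives dim-1 as completely deleted. Both came from cultures grown with shaking for 16 h at 32 °C in Vogel's minimal medium with 1.5% sucrose. The labels of the RNA samples give neither the lighting of the cultures nor a time of the circadian day, and they call the libraries duplicates without saying that they had separate cultures, which means that the replicate spread may be technical. The wild-type RNA that the series names as its reference was not analysed here, and no level below is a difference from wild type.

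In the clock of this fungus, the proteins WC-1 and WC-2 join as the White Collar complex, a transcription factor that also senses blue light and that switches on frq. FRQ protein pairs with the helicase FRH, recruits casein kinase I (the product of ck-1a), and shuts down White Collar activity, so that frq transcript falls. FRQ is then phosphorylated step by step and loses its function, the F-box protein FWD-1 directs its degradation, and a new daily cycle starts. The White Collar complex and repressors such as CSP-1 pass the rhythm on to the clock-controlled (ccg) genes.

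The targeted gene dim-1 had 258 counts in replicate 1 and 171 in replicate 2, or 14.9 and 12.5 CPM (counts per 1000000 counts over all genes). Per kilobase of gene span, introns included, dim-1 had 1.92 CPM in replicate 1 and 1.62 in replicate 2. By that measure it stood at percentiles 9.16 and 9.40 of the detected genes defined below, whose medians were 13.3 and 12.5. Reads at a gene labelled as deleted go against the label in part, since counts per gene do not show which bases they came from, and the libraries are therefore called by their label. The summed counts of all genes were 17364963 in replicate 1 and 13632746 in replicate 2. The label names the material germinated conidia. The 3 genes taken as markers of growing hyphae and found in the gene table had a sum of 13751 CPM (replicate 1) and 14616 (replicate 2). The 5 conidial markers had one of 225 and 151, and the 3 markers of sexual development one of 0.346 and 0.807. Most of the hyphal sum came from a single gene, tef-1, with 9307 and 9206 CPM. None of these lists was tested for being specific to its cell type, so the sums do not give shares of cell types. The hyphal markers ran from hex-1 (NCU08332) at 1776 ± 260.2 CPM to tef-1 (NCU02003) at 9257 ± 70.8 CPM (SD, n = 2). Of the 4 conidial markers with at least 10 counts in both libraries, 2 were higher in replicate 1 and 2 in replicate 2. Their sums therefore do not show a shared direction. The remaining conidial marker, con-13 (NCU07324), had 2 and 0 counts. Of the sexual development list, fmf-1 (NCU09387) had 0 in both libraries, while poi-2 (NCU05768), the highest of that list, had 3 and 9. In bulk RNA, fewer cells of a type and less RNA per cell cannot be told apart.

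Both genes of the positive limb lay above the median detected gene, 34.2 CPM. The photoreceptor and transcription factor gene wc-1 had 2395 counts (138 CPM) in replicate 1 and 1560 (114 CPM) in replicate 2. Its partner gene wc-2 had 958 counts (55.2 CPM) and 722 (53.0 CPM). The exact Poisson 95% intervals of wc-1, 132 to 144 CPM and 109 to 120 CPM, did not meet, while the values of wc-2 lay close together. The means were 126 ± 16.6 CPM for wc-1 and 54.1 ± 1.56 CPM for wc-2 (SD, n = 2). The RefSeq gene table lists 4 transcripts for wc-1, and the counts are per locus and do not separate them.

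In the negative limb, frh had the lowest level of all members, and frq a somewhat higher one. The period gene frq had 1398 counts in replicate 1, or 80.5 CPM with an exact Poisson 95% interval of 76.3 to 84.8, and 945 counts in replicate 2, or 69.3 CPM with an interval of 65.0 to 73.9. Its helicase partner frh had 855 counts (49.2 CPM, 46.0 to 52.7) and 438 counts (32.1 CPM, 29.2 to 35.3). For both genes the higher value lay in replicate 1 and the counting intervals did not meet. The means were 74.9 ± 7.91 CPM for frq and 40.7 ± 12.1 CPM for frh (SD, n = 2). The frq locus is known to be transcribed on both strands, the antisense RNA being called qrf. The library kit marks strand, but the strand setting of the counting is not given in the sources used here, so frq values may hold antisense reads. The gene table lists 3 transcripts for frq, whose known splice forms give a long and a short FRQ protein.

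The kinase gene ck-1a stood far above the rest of the loop. It had 13736 counts (791 CPM) in replicate 1 and 9457 (694 CPM) in replicate 2, a mean of 742 ± 68.8 CPM (SD, n = 2). The F-box gene fwd-1, whose product links FRQ to a ubiquitin ligase, had 1932 counts (111 CPM) and 1322 (97.0 CPM), a mean of 104 ± 10.1 CPM. Each was slightly higher in replicate 1. In the gene table the end of fwd-1 overlaps another gene, NCU04541, by 224 bases, which is 5.36% of the fwd-1 span. Reads from that stretch may have been assigned to either gene or to neither.

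In summed CPM, the 4 outputs held most of the members' reads and most of the difference between libraries, mainly through ccg-14. As ratios between the libraries, csp-1 and ccg-6 differed less than frh of the core loop. The repressor gene csp-1 had 5180 counts (298 CPM) in replicate 1 and 2959 (217 CPM) in replicate 2. The gene ccg-1, also known as grg-1, a glucose-repressible gene, had 10134 counts (584 CPM) and 2271 (167 CPM). For these genes replicate 1 was the higher library, moderately for csp-1 and severalfold for ccg-1. The gene ccg-6 had 59613 counts (3433 CPM) and 49789 (3652 CPM) and was the only member with the higher level in replicate 2. The gene ccg-14, which encodes a small secreted protein of the cerato-platanin family, had 172932 counts (9959 CPM) and 70621 (5180 CPM). It ranked number 4 of all genes in replicate 1 and number 11 in replicate 2. On its own ccg-14 took 0.996% of all gene counts in replicate 1 and 0.518% in replicate 2, against 1.55% and 1.03% for the 10 members together.

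**Figure D1:**
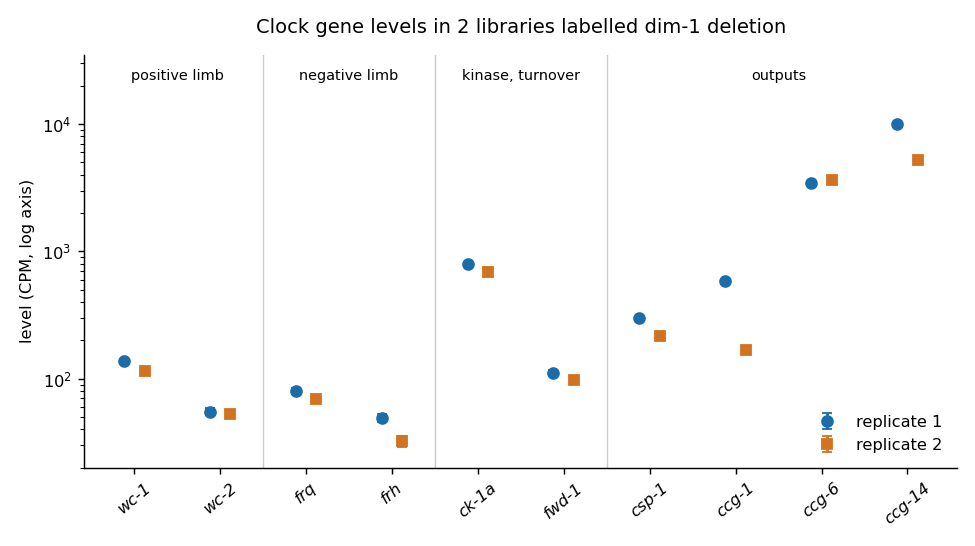
Level of each clock gene in CPM on a log axis, in replicate 1 (circles) and replicate 2 (squares) of the strain labelled dim-1 deletion, by role; bars are exact Poisson 95% intervals, mostly smaller than the symbols. The core loop lies between 32.1 CPM for frh and 791 CPM for ck-1a, and the outputs reach 9959 CPM for ccg-14.

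Levels of different genes were compared per kilobase of gene span, the distance from gene start to gene end in the gene table, introns included, because longer transcripts give more reads. In CPM per kilobase the order was ccg-14 (2658 ± 1186; SD, n = 2), ccg-6 (1538 ± 67.3), ccg-1 (486 ± 382), ck-1a (183 ± 17.0), csp-1 (113 ± 25.3), fwd-1 (24.9 ± 2.42), wc-1 (19.6 ± 2.57), frq (15.5 ± 1.64), wc-2 (15.0 ± 0.433) and frh (9.37 ± 2.79). The order was the same in both libraries except that frq and wc-2 changed places. Those neighbours did not differ beyond their spread, with 16.7 and 14.4 CPM per kilobase for frq and 15.3 and 14.7 for wc-2. For every other pair of neighbours the 2 libraries of one gene lay wholly above those of the next. The smallest such gap was between wc-1, whose lower library had 17.7 CPM per kilobase, and frq, whose higher library had 16.7.

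Against the median of detected genes, which was 13.3 CPM per kilobase in replicate 1 and 12.5 in replicate 2 (7775 genes with at least 10 counts in both), 5 core-loop genes stood above and frh below. Among detected genes by this measure, frq lay at percentiles 56.6 (replicate 1) and 54.0 (replicate 2), and wc-2 at 54.5 and 54.6. The helicase gene frh stood at percentile 45.0 and 36.5, and ck-1a at 95.1 and 94.3. So frq and wc-2 were close to a typical detected gene, while the kinase gene was near the top. The outputs stood between percentile 90.5, for csp-1 in replicate 2, and 99.9, for ccg-14 in replicate 1.

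**Figure D2:**
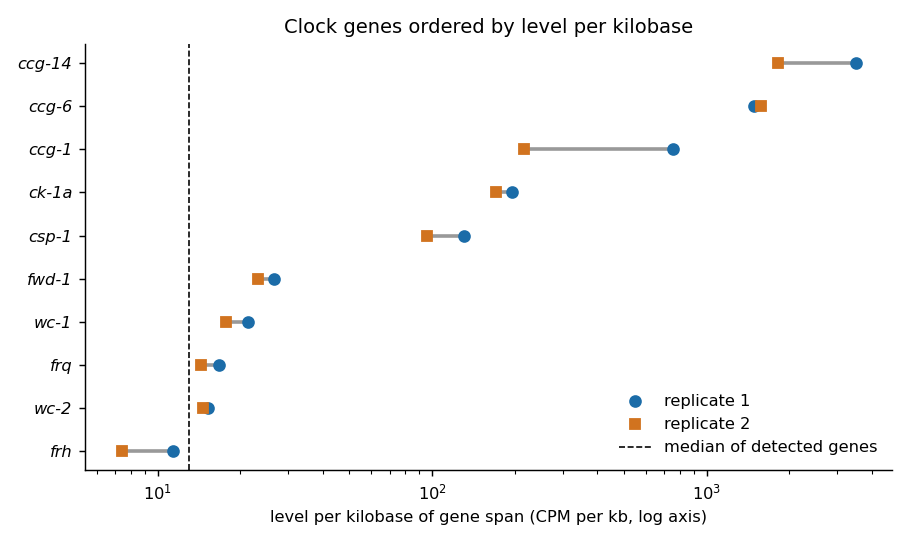
Level per kilobase of gene span (CPM per kilobase, log axis) for the clock genes, ordered by their mean; circles are replicate 1, squares replicate 2, the grey line joins them, and the dashed line is the median of detected genes. Only the ranges of frq and wc-2 overlap between neighbours in the order.

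Ratios between members within a library do not depend on its sequencing depth. Per kilobase, frq stood to wc-1 as 0.781 in replicate 1 and 0.810 in replicate 2, and to fwd-1 as 0.627 and 0.619. The kinase gene ck-1a was 11.7 times as high as frq in replicate 1 and 11.9 times in replicate 2. These 3 ratios were nearly the same in both libraries, and the others were less so. The ratio of frq to wc-2 was 1.09 and 0.979, that of wc-1 to wc-2 was 1.40 and 1.21, and that of csp-1 to frq was 7.87 and 6.65. The ratio of frq to frh moved further, at 1.47 and 1.94, because frh differed more between the libraries than frq. Among outputs, ccg-14 was 2.35 times as high as ccg-6 in replicate 1 and 1.15 times in replicate 2.

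The comparison that the 2 libraries allow is between the replicates of this strain, and it shows how far each clock gene varied with no labelled change of condition. The test took 7898 genes whose counts summed to 20 or more. For each, an exact binomial test (two-sided) set the reads of replicate 1 against the share given by library size after TMM scaling, which sets library sizes so that most genes do not change. P-values were adjusted over all 7898 genes by the Benjamini-Hochberg method, and a call needed both an adjusted p under 0.05 and a 2-fold difference. The test compares these libraries, not conditions, and it treats reads as independent, leaving out the spread between cultures.

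A single member, ccg-1, was called. Its level was 3.37-fold higher in replicate 1 (95% counting interval 3.22 to 3.53), a log2 ratio of −1.75 for replicate 2 over replicate 1, and the size of its ratio stood at percentile 98.7 of all tested genes. Of all tested genes, 5.04% were called with replicate 1 as the higher library and 1.11% with replicate 2, so 1 called gene among 10 members is near that background. The genes on either side of ccg-1 in the gene table, picked for their place, were not called, with log2 ratios of 0.23 for NCU03752 and −0.07 for NCU03754. Neighbours of other members did not all stay level. Beside ccg-14, col-26 (NCU07788) had a log2 ratio of −0.80 and NCU07786, with 12 and 14 counts, one of 0.60, and neither was called. Over the neighbours of all members the ratios ran from −0.95, for NCU00684 beside ck-1a, to the 0.60 of NCU07786. In between, NCU02712 beside csp-1 had −0.94 and NCU02267 beside frq 0.47. No neighbour was called. edgeR's exact test, which adds a common spread between replicates (a coefficient of variation of 23.9%, estimated from the same 2 libraries), gave ccg-1 an adjusted p of 0.0646. That test called none of the 10 members at an adjusted p under 0.05, against 0.646% of all tested genes. At an unadjusted p under 0.05 it passed 1 member, ccg-1, and 430 of the 7898 genes.

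The next largest differences were those of ccg-14, 1.85-fold higher in replicate 1 (1.83 to 1.87), and frh, 1.47-fold higher (1.31 to 1.66), followed by csp-1 at 1.32-fold (1.26 to 1.38). They were under the 2-fold minimum. The intervals are narrow because they cover counting error only, and by edgeR's exact test, with the common spread, each of the 3 genes had an adjusted p of 1. In the core loop apart from frh, differences were small. The gene wc-1 was 1.16-fold higher in replicate 1 (1.09 to 1.24), frq 1.12-fold (1.03 to 1.21; exact binomial adjusted p = 0.0166), fwd-1 1.10-fold (1.03 to 1.18; exact binomial adjusted p = 0.0115) and ck-1a 1.10-fold (1.07 to 1.13). For wc-2 no difference was detectable, with a log2 ratio of −0.00 and an interval of −0.14 to 0.14 (exact binomial adjusted p = 0.998). The gene ccg-6 was 1.11-fold higher in replicate 2, a log2 ratio of 0.15 (0.13 to 0.16).

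By direction, 9 of the 10 members had the higher level in replicate 1 under each of the 3 scalings tried, although for wc-2 the difference was within counting error. Over all tested genes 49.9% were higher in replicate 1 under TMM scaling. Without the fold minimum, 8 members had an adjusted p under 0.05 and were higher in replicate 1, against 28.2% of all tested genes, and 1 member was higher in replicate 2, against 29.1%. Since the abundant members have many reads, even small ratios pass this test for them. The median log2 ratio was −0.19 over the 10 members, −0.15 over the 6 core-loop genes and −0.64 over the 4 outputs, while it was 0.00 over all tested genes.

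**Figure D3:**
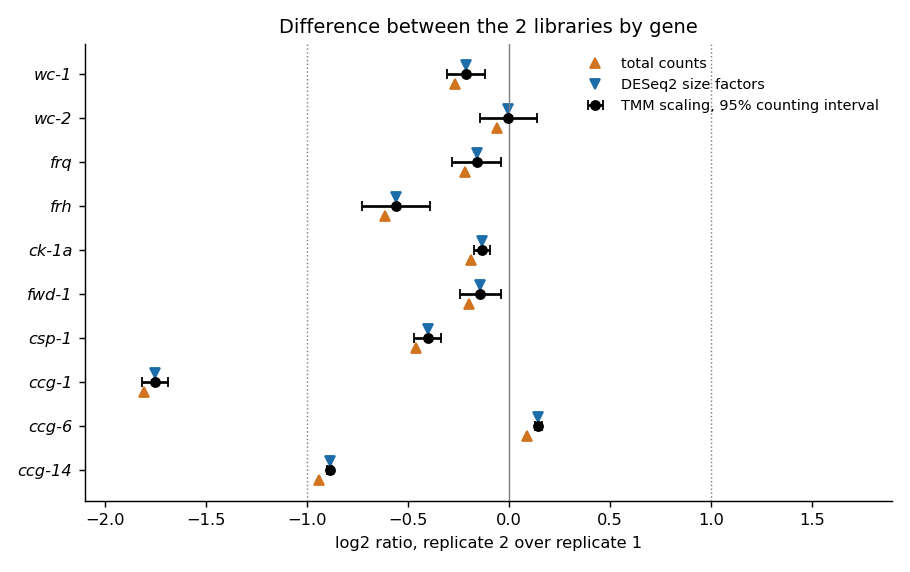
Log2 ratio of replicate 2 over replicate 1 for each clock gene; black points and bars are TMM-scaled ratios with 95% counting intervals, triangles the ratios with total counts or DESeq2 size factors, and dotted lines mark 2-fold. Only ccg-1 lies beyond 2-fold, and ccg-6 is the only gene to the right of 0 under each scaling.

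**Figure D4:**
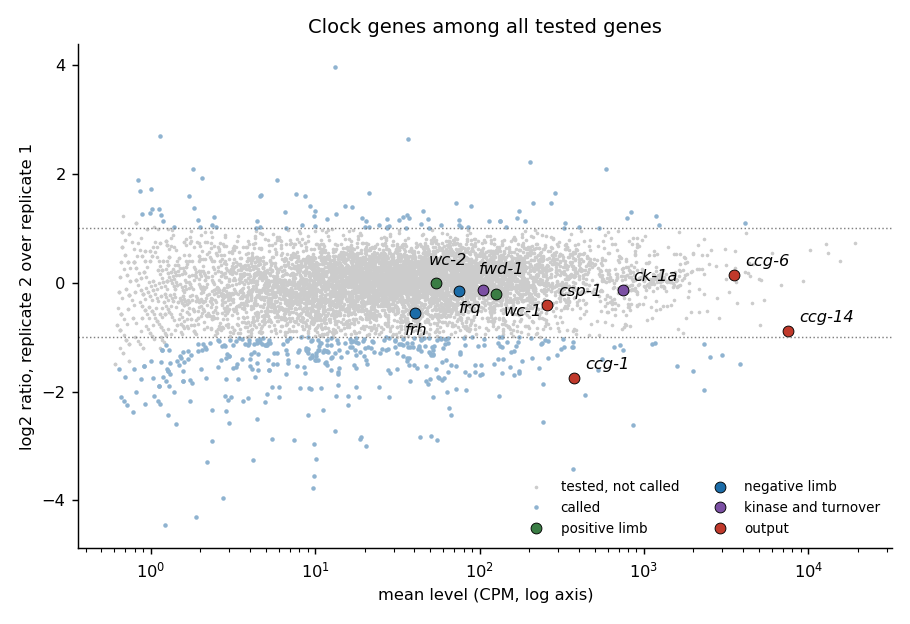
Mean level (CPM, log axis) against the log2 ratio of replicate 2 over replicate 1 for the 7898 tested genes; light blue points were called, large points are the clock genes coloured by role, and dotted lines mark 2-fold. The core-loop genes lie inside the cloud of genes not called, and ccg-1 lies among the called genes at −1.75.

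Kinases, phosphatases and turnover factors of FRQ, with other genes of the clock's period, formed a list of 22 modifier genes. Of these, 20 were found in the gene table by name. All 20 had at least 10 counts in both libraries, with a median of 85.6 CPM. The highest was skp-1 (NCU08991, scon-3 in the table), a subunit of the ubiquitin ligase that works with FWD-1, at 589 ± 49.4 CPM (SD, n = 2). The lowest was csw-1 (NCU09106, crf10-1 in the table), which is known to remodel chromatin at frq, at 23.0 ± 2.06 CPM. The 7 genes csn-1 to csn-7 of the COP9 signalosome, a complex that keeps such ligases active, lay in a narrow range from 36.9 to 54.6 CPM. The 3 genes of casein kinase 2, another kinase of FRQ, ranged from 82.2 to 244 CPM, and the 2 phosphatase genes on the list from 207 to 331 CPM.

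None of the 20 modifier genes was called between the libraries by the exact binomial test with the 2-fold minimum. Of all tested genes, 5.04% were called higher in replicate 1 and 1.11% in replicate 2, so 0 of 20 is near that background. At an unadjusted p under 0.05 and with no fold minimum 14 of the modifier genes passed, as did 4800 of all 7898 tested genes. edgeR's exact test passed 0 of them both before and after adjustment. Over all 7898 tested genes it passed 430 before adjustment and 0.646% after it. Their log2 ratios ran from −0.15 to 0.47 with a median of 0.15, and 16 of 20 were higher in replicate 2 under TMM scaling, or 14 of 20 with total counts. All 6 core-loop genes had ratios under 0 under each scaling. The lists were not compared by a test.

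The 2 genes of the corepressor with which CSP-1 works, rco-1 (NCU06205) and rcm-1 (NCU06842), had 373 ± 7.57 and 176 ± 9.39 CPM (SD, n = 2). Their log2 ratios were 0.10 and 0.16, whereas that of csp-1 was −0.40. Of 6 light-input genes, the photoreceptor gene vvd (NCU03967), which damps the White Collar response to light, was highest with 1206 CPM in replicate 1 and 1334 in replicate 2. The lowest was the opsin gene nop-1 (NCU10055), with 42 and 10 counts. Of this list, nop-1 and the phytochrome gene phy-2 (NCU05790), with 78 and 17 counts, were called higher in replicate 1 by the exact binomial test, against 5.04% of all tested genes. edgeR's exact test called neither, though both passed it at an unadjusted p under 0.05. The list median was a log2 ratio of 0.00.

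Of the other clock-controlled genes, 4 of 13 were called between the libraries, 3 of them higher in replicate 1 and 1 in replicate 2. The list took every non-member with a ccg- number as symbol or synonym, and eas, gpd-1, al-3, con-6, con-10 and adv-1 were added by name. Of the called genes, con-10 and adv-1 were such additions, so the share called depends on this choice. Over all tested genes the shares called were 5.04% and 1.11%. The 13 genes all had at least 10 counts in both libraries, and ranged from con-6 (NCU08769) at 1.63 ± 0.597 CPM to gpd-1 (NCU01528, also ccg-7, a glycolytic enzyme) at 15520 ± 2649 CPM (SD, n = 2). The genes called higher in replicate 1 by the exact binomial test were ccg-13 (NCU08907), with 64759 and 12490 counts (3729 and 916 CPM; log2 ratio −1.97), ccg-9 (NCU09559), a trehalose synthase gene, with 4625 and 1110 counts (266 and 81.4 CPM; −1.65), and con-10 (NCU07325), a conidiation gene, with 450 and 80 counts (25.9 and 5.87 CPM; −2.08). For each of them replicate 1 was over 3 times as high as replicate 2, as it was for ccg-1. A single gene was called higher in replicate 2, the transcription factor gene adv-1 (NCU07392), with 2494 and 5910 counts (144 and 434 CPM; log2 ratio 1.65). edgeR's exact test called ccg-13 and con-10, both at an adjusted p of 0.0205, against 0.646% of all tested genes.

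Over the 13 genes 6 were higher in replicate 1 and 7 in replicate 2, with a median log2 ratio of 0.34. With the 4 outputs among the members added, calls for a higher level in replicate 1 came to 4 of 17 clock-controlled genes, and those for replicate 2 to 1 of 17, against 5.04% and 1.11% of all tested genes. The members and lists were picked with earlier results of these libraries known, so these shares are a description.

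Values for genes of carbon use and of conidiation stand here beside those of the outputs. The 5 glycolysis and fermentation genes found by name had log2 ratios of replicate 2 over replicate 1 from 0.41 to 1.09, with pyruvate decarboxylase cfp (NCU02193) highest at 14886 and 23817 CPM. Of these, 1 of 5 was called, aldolase fba (NCU07807; 2692 and 5522 CPM), against 1.11% of all tested genes called higher in replicate 2, and edgeR's exact test gave it an adjusted p of 0.676. Of 4 conidiation genes, con-8 (NCU09235; 144 and 67.3 CPM) and con-10 were called higher in replicate 1, against 5.04% of all tested genes. By edgeR's exact test con-8 had an adjusted p of 0.811. The lowest of the list, con-6, had 1.21 and 2.05 CPM and was not called. By direction the conidiation list was split, with 2 genes higher in replicate 1 and 2 in replicate 2. The lists share genes. All genes of the conidiation list are also conidial markers, and con-6, con-10 and eas are also among the other clock-controlled genes. The gene gpd-1 is in that list and in the glycolysis list. The call of con-10 and the split by direction are therefore the ones already given, not further results. The part of carbon state or of conidiation in the difference of ccg-1 and ccg-14 was not tested.

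**Figure D5:**
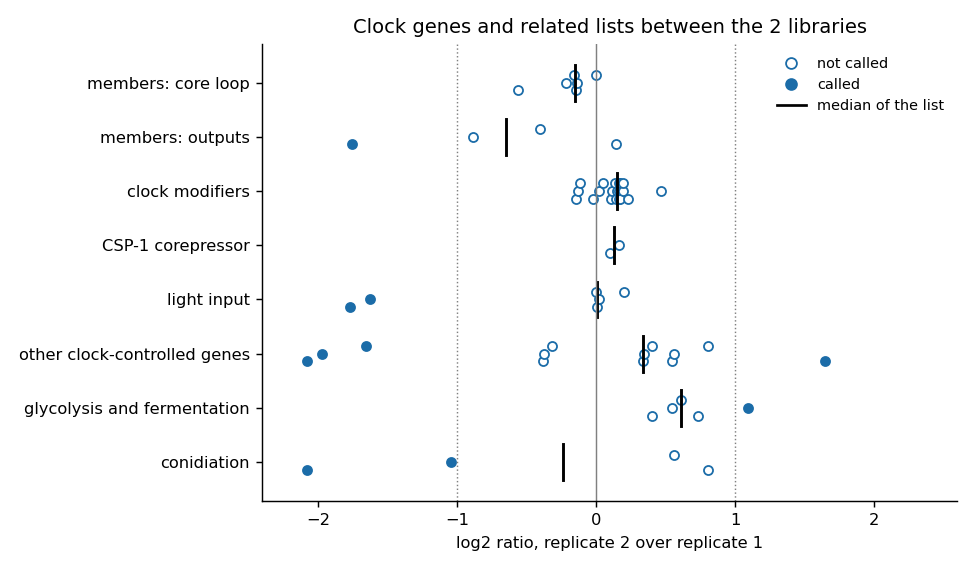
Log2 ratio of replicate 2 over replicate 1 for the core loop, the outputs and the related lists; each circle is a gene, filled where called by the exact binomial test, black bars are list medians, and dotted lines mark 2-fold. The modifiers lie between −0.15 and 0.47, and the other clock-controlled genes between −2.08 and 1.65.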

How the data were processed

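Whole-number read counts per gene were deposited by the authors for each poly-A RNA library, not normalized. TopHat and HTSeq are among the tools in the submitters' processing notes. Which build, annotation and strand setting the counts rest on is not given in the sources used here. The 5 rows for reads without a gene (10.2% of replicate 1 and 9.19% of replicate 2) were left out.

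CPM used the total over genes. Scaling and the common spread came from edgeR 4.0.16 (R 4.3.3), size factors from DESeq2 1.42.0, and tests and intervals from scipy 1.17.1 in Python 3.11.15. Ratios had 0.5 counts added. Intervals cover counting error only. A quasi-likelihood test between groups could not be fitted with a single group. Symbols and spans came from the RefSeq gene table of NC12, which held 9729 of 9730 loci. No coordinates are given because the build is not stated.

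The members and lists were chosen with earlier results of these data known. Named genes are the members, dim-1, and of each list the highest, the lowest and every called gene. Neighbours and overlapping genes of a member were named for their place, and some neighbours also for the size of their ratio. Subgroups of the modifier list were formed after its values were seen. List genes that the table did not name (prd-1, prd-2, tpi, pfk, pgi and bml) were left out. No gene was named for a similar pattern, since 2 libraries give a single ratio each.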

Additional observations from a re-analysis of the deposited data

How the results depend on the processing

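The median level of the 10 members, 192 CPM, ranged from 141 to 218 CPM when either replicate was left out, and was within the replicate spread under TMM scaling and with totals that left out the 10 highest genes. Those totals are smaller, so the level of every member rose with them. The member ccg-14 is itself among the 10 highest genes, so its level was set against a total that leaves it out. The rise passed the replicate spread for 5 single members, frq at 83.7, wc-2 at 60.5, ck-1a at 830, fwd-1 at 116 and ccg-6 at 3965 CPM. Which members passed depends on how small their spread was, and does not show that these genes are more sensitive than the others. Total counts, DESeq2 size factors, no minimum count and a minimum of 100 counts left ccg-1 as the only called member, with 385 to 507 genes called overall against 486. With a fold minimum of 1.5, 1463 genes and 2 members (ccg-1 and ccg-14) were called. edgeR's exact test called 51 genes and 0 members. No member changed direction under the alternatives run. With total counts the median log2 ratio over all tested genes was −0.06, and 86.8% of calls were higher in replicate 1 against 81.9%.

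No paired analysis was possible because the RNA libraries form a single group. Leaving out a replicate gives no second library, so the calls have no such value. Levels per kilobase of coding length were not run, because no protein table was used here.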
